A study of Homo sapiens with 6 samples.

Results

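The ZIP proteins of the SLC39 family carry zinc into the cytosol, from outside the cell or out of its organelles. Their transcripts were followed in A549, an established human lung adenocarcinoma line with epithelial character, after recombinant human surfactant protein D (rhSP-D) or vehicle. The 10 genes SLC39A1, SLC39A3, SLC39A4, SLC39A6, SLC39A7, SLC39A8, SLC39A9, SLC39A10, SLC39A11 and SLC39A14 were found by symbol, 10 rows of the 57773 genes counted. The list was chosen by gene family and selected on the measured contrast of rhSP-D and vehicle, in which SLC39A10 was higher, so values of the 10 in that contrast are given as a description, without a p-value. The other 4 ZIP genes of the table, SLC39A2, SLC39A5, SLC39A12 and SLC39A13, are described separately.

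Poly(A) RNA was sequenced from 6 samples. The 3 rhSP-D samples had received the protein, a soluble lectin of the airspace, at 10 µg/ml for 48 h, and the 3 vehicle samples an equal volume of its elution buffer for 48 h. All 6 were grown in medium with fetal bovine serum, and the labels name no genetic change to the line. No source used here says that the 3 samples of a group came from separate cultures, and every error and p-value given here reflects how these samples varied, which can be a technical variation.

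Cellular zinc is held low by opposed transporters and by binding proteins. ZIP importers raise cytosolic zinc, ZnT exporters of the SLC30 family lower it by moving zinc out of the cell or into vesicles, and metallothioneins bind it. The transcription factor MTF1 senses zinc and binds metal response elements (MREs), raising metallothionein and SLC30A1 transcription when zinc is plentiful, while transcription of SLC39A10 is known to fall under the same conditions in other vertebrate cells. In lung epithelium SLC39A8 is known as a ZIP gene that inflammatory signals induce.

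The promoters of SLC39A10 and of the 2 classical zinc-induced genes SLC30A1 and MT2A are shown because SLC39A10 was higher and the other 2 were lower in rhSP-D, as described below. The windows run from 250 bases before to 50 bases after a RefSeq start (build GRCh38.p14), read along the gene. Capitals mark matches to the MRE core, TGCACNC or TGCGCNC, on either strand, so that a match on the other strand reads GNGTGCA or GNGCGCA; overlapping matches were allowed. SLC39A10 has 2 RefSeq starts, with windows at chr2:195656708-195657007 and chr2:195656976-195657275 on the plus strand. SLC30A1 lies at chr1:211579112-211579411 on the minus strand and MT2A at chr16:56608334-56608633 on the plus strand.
SLC39A10 window 1: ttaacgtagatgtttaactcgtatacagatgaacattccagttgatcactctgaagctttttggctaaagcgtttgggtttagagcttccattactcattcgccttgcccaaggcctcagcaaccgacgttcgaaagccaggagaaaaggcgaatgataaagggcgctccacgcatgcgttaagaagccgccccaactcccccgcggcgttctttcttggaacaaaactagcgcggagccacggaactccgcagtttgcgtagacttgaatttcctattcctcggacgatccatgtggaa
SLC39A10 window 2: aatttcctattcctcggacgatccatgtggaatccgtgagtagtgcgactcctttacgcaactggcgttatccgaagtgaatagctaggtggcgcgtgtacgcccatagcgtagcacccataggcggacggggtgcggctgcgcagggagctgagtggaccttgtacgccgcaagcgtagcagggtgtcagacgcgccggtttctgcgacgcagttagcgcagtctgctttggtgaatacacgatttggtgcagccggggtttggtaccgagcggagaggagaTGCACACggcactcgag
SLC30A1: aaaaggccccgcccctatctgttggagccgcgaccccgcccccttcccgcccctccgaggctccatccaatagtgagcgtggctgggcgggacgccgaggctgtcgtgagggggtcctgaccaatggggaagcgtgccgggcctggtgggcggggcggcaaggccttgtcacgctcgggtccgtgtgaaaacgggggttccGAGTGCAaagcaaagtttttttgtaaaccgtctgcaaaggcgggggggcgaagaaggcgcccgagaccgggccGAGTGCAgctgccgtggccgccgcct
MT2A: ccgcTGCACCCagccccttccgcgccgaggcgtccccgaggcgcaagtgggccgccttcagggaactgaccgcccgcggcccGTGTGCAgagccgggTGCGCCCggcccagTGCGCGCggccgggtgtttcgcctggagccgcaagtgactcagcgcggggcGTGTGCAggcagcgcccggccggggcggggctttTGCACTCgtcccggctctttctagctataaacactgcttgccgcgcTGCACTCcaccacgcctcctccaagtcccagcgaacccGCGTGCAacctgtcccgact

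Window 1 of SLC39A10 held no match and window 2 held 1, TGCACAC, beginning at base 284 of the 300, inside the transcribed part. SLC30A1 held 2 matches and MT2A held 8. Of the other scanned genes that were lower in rhSP-D, MT1X held 4 matches, SLC30A6 held 1 and SLC30A9 held 0. MT1F, also lower, had no window. Of all 35116 windows of the same length in the table, 29.6% held at least 1 match, 8.60% at least 2 and 0.601% at least 4. Among the ZIP genes 8 of 10 had windows (SLC39A4 and SLC39A14 had none), 13 in all, and 5 of these 13 held 1 match each, in SLC39A1, SLC39A3, SLC39A6, SLC39A8 and SLC39A10. These shares were not adjusted for base composition, which was 49.7% and 58.7% GC in the SLC39A10 windows and 72.0% GC in that of MT2A. A match is a run of letters, and binding of MTF1 was not analysed here.

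The annotated positions of the 10 genes on GRCh38, from GENCODE 29, lie on 9 chromosomes, and all are protein coding. SLC39A10 (ENSG00000196950) occupies chr2:195575977-195737702 on the plus strand, SLC39A6 chr18:36108532-36129385 on the minus strand and SLC39A14 chr8:22367249-22434129 on the plus strand. SLC39A1 occupies chr1:153959099-153968184, SLC39A3 chr19:2732204-2740152 and SLC39A4 chr8:144409742-144416895, all on the minus strand. SLC39A7 occupies chr6:33200445-33204439 and SLC39A9 chr14:69398015-69462388 on the plus strand, and SLC39A8 chr4:102251041-102431258 and SLC39A11 chr17:72645949-73092712 on the minus strand. The table gives 1 count per gene, so isoforms were not separated.

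Libraries held 11396193 to 26030880 counts over genes, vehicle replicate 1 being the shallowest, and each of the 10 ZIP genes had at least 249 counts in every library. Of 5 epithelial markers, KRT8 and KRT18 stood among the abundant transcripts, at 5025 CPM or more and 4101 CPM or more in every library. CDH1 ran from 139.9 to 151 CPM, while EPCAM (1.47 to 2.56 CPM) and KRT19 (1.29 to 2.29 CPM) were scarce. None of 5 alveolar type II markers (SFTPA1, SFTPB, SFTPC, NKX2-1 and LAMP3) reached 1 CPM in any library. CPM are counts scaled to library size after TMM normalization, a method that aligns libraries on the bulk of their genes. Of 6 markers of macrophages and leukocytes 3 reached 1 CPM (CD68, CD14 and ITGAM), with a summed level of 86.1 to 91.4 CPM in vehicle and 93.5 to 99.02 CPM in rhSP-D, while PTPRC had at most 1 count in a library; the part of this difference in the results was not tested. Of 5 fibroblast markers COL1A1 alone reached 1 CPM (summed level 9.59 to 13.3 CPM in vehicle and 11.2 to 13.2 CPM in rhSP-D, DCN at 0), and neither of 2 counted endothelial markers did. In bulk RNA, a change in the number of cells that express a gene and a change in RNA per cell cannot be told apart.

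Of the 10 ZIP genes SLC39A10 had the largest difference between rhSP-D and vehicle. Its protein is a zinc importer of the plasma membrane that belongs to the LIV-1 group and pairs with the SLC39A6 protein. It was counted 594, 877 and 1124 times in vehicle replicates 1, 2 and 3 and 2318, 1639 and 1708 times in rhSP-D replicates 1, 2 and 3. On the CPM scale vehicle stood at 51.4, 48.9 and 55.9 and rhSP-D at 90.5, 89.4 and 85.7. The highest vehicle library lay well below the lowest rhSP-D library, and the groups did not overlap. The log2 change was 0.76 ± 0.04 (SE, n = 3 per group), or 69.6% higher with a 95% interval from 59.6% to 80.3%. Ordered by log2 change, it was rank 47 from the top of 14374 tested genes that averaged 1 CPM or more.

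**Figure D1:**
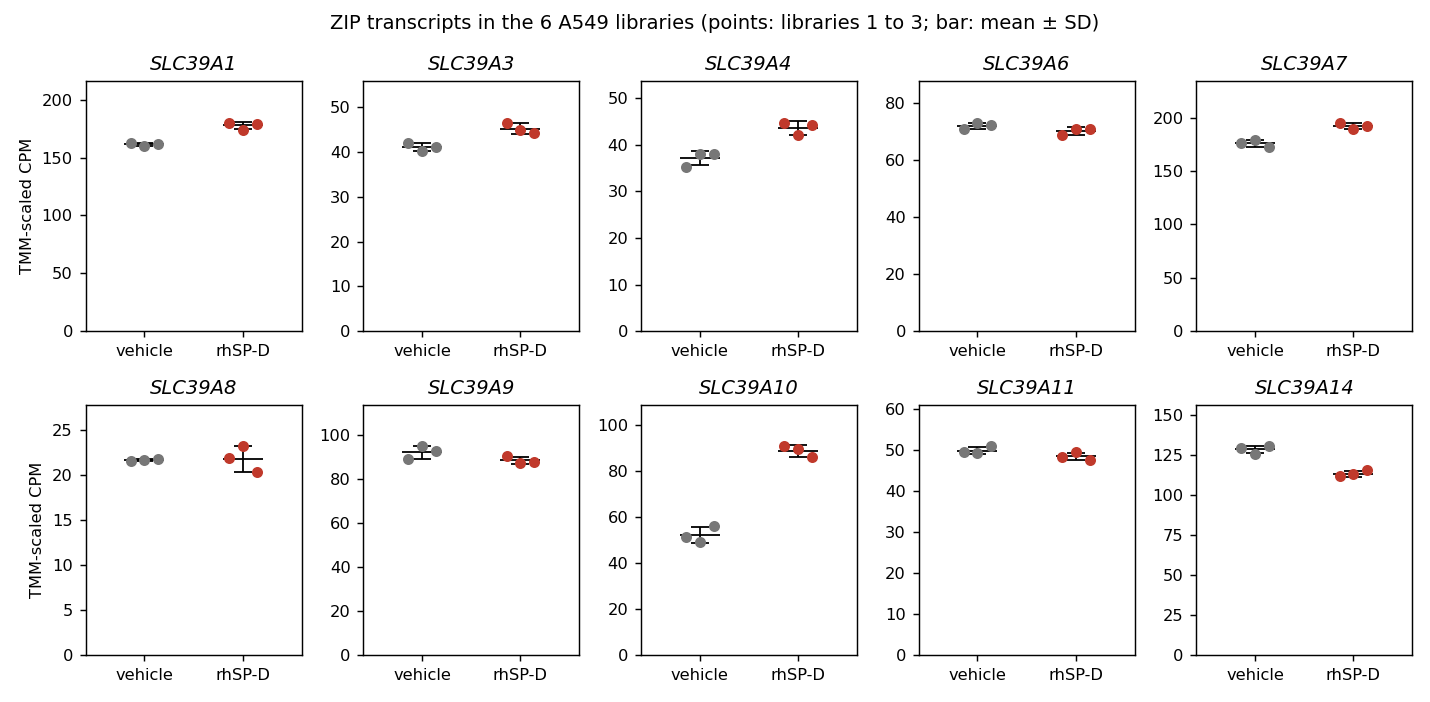
Levels of the 10 ZIP transcripts in CPM (linear axes from 0, a scale for each gene); grey points are the 3 vehicle libraries, red points the 3 rhSP-D libraries, and bars the mean ± SD. SLC39A10 sits at 48.9 to 55.9 CPM in vehicle and 85.7 to 90.5 CPM in rhSP-D, and SLC39A14 is lower in each rhSP-D library than in any vehicle library.

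Ratios of counts within a library do not depend on how libraries are scaled. For each count of its partner SLC39A6 there were 0.727, 0.67 and 0.776 counts of SLC39A10 in vehicle and 1.32, 1.26 and 1.21 in rhSP-D. SLC39A10 was thus the more counted of the pair in all 3 rhSP-D libraries, but it has 6917 exonic nt against 3682 nt. Per kb of merged exons it stayed below SLC39A6 in rhSP-D, at 12.4 to 13.1 against 18.6 to 19.3 CPM per kb. Relative to the exporter SLC30A1 the ratio was 0.413, 0.405 and 0.467 in vehicle and 0.961, 0.908 and 0.878 in rhSP-D. Relative to the metallothionein MT2A it was 0.376, 0.338 and 0.389 in vehicle and 0.816, 0.825 and 0.809 in rhSP-D. The ratio of group means was 1.75 for SLC39A6, 2.14 for SLC30A1 and 2.22 for MT2A. SLC30A1 and MT2A were themselves lower in rhSP-D (log2 changes -0.33 and -0.39), so their ratios combine the changes of both genes. As SLC39A10 was selected on this contrast, the ratios are a description. No ratio of a vehicle library reached that of any rhSP-D library. Between other ZIP genes the ratio of SLC39A4 to SLC39A6 was 0.499, 0.52 and 0.528 in vehicle and 0.652, 0.594 and 0.623 in rhSP-D, again apart. That of SLC39A7 to SLC39A1, the most abundant pair, was 1.09, 1.12 and 1.06 in vehicle and 1.08, 1.09 and 1.07 in rhSP-D, with the groups intermingled.

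**Figure D2:**
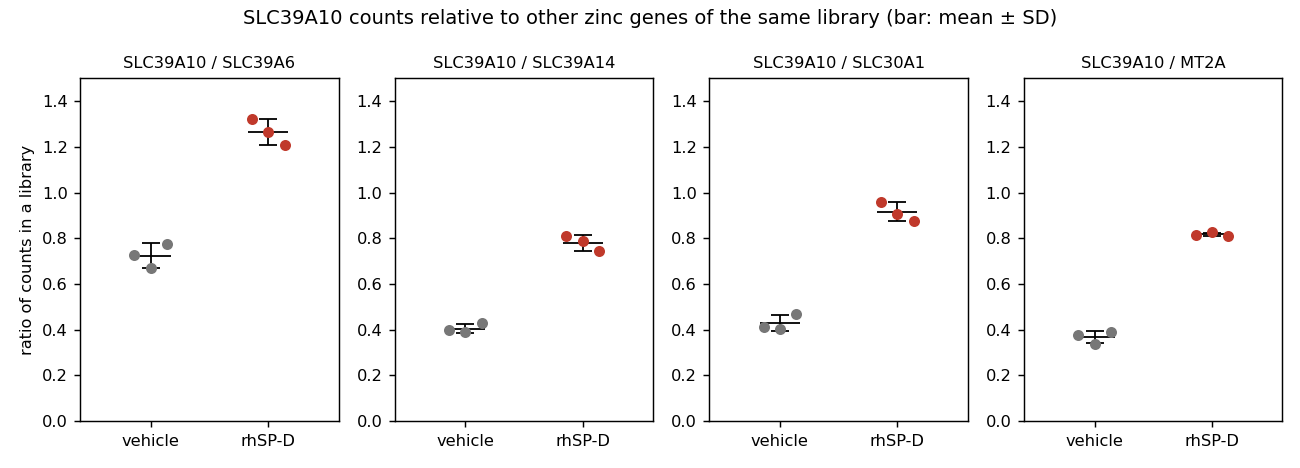
Counts of SLC39A10 divided by counts of SLC39A6, SLC39A14, SLC30A1 or MT2A in the same library (linear axis from 0); grey points are vehicle, red points rhSP-D, bars mean ± SD. The ratio to SLC39A6 runs from 0.67 to 0.776 in vehicle and from 1.21 to 1.32 in rhSP-D, and in none of the 4 panels do the groups overlap.

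Over all genes tested, 15.9% had an adjusted p under 0.05 with edgeR (2526 of 15848), 9.31% as higher and 6.63% as lower in rhSP-D (1475 and 1051 genes), and the 2 groups of libraries did not overlap in 31.5%, with rhSP-D above in 16.2% and below in 15.4%. The split was 856 higher and 1961 lower when only library totals set the scale, and offsets for gene length and GC content gave 1271 higher and 429 lower. All 10 ZIP genes passed the filter on low counts. Of these, 6 were past the threshold, 5 higher (SLC39A1, SLC39A3, SLC39A4, SLC39A7 and SLC39A10) and 1 lower (SLC39A14), and the same 6 had groups that did not overlap; as the contrast guided the choice of genes, nothing is read from these counts. The median log2 change of the 10 was 0.07, against -0.0063 over all genes tested.

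Among the other importers of the cell surface, SLC39A4 had the next largest log2 change after SLC39A10. Its protein takes up dietary zinc in the intestine, and its loss causes acrodermatitis enteropathica. Its levels were 35.3, 37.98 and 38.04 CPM in vehicle and 44.7, 41.99 and 44.2 CPM in rhSP-D, without overlap. The log2 change was 0.23 ± 0.05 (SE), a level 17.1% higher with a 95% interval from 9.32% to 25.5%. A GENCODE 29 model on the opposite strand, AC233992.3, shares 180 nt of its exons.

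SLC39A1 and SLC39A3 encode the broadly expressed surface importers ZIP1 and ZIP3. SLC39A1 was measured at 162, 160 and 162 CPM in vehicle and 180, 174 and 179 CPM in rhSP-D (log2 change 0.14 ± 0.03 SE, 10.3% higher). The model AL358472.7 on the same strand covers 2061 of its 3388 exonic nt, so its count depends on how shared reads were assigned, which is not given in the sources used here; CREB3L4, on the opposite strand, shares 280 nt. SLC39A3 was measured at 42.1, 40.3 and 41.1 CPM in vehicle and 46.6, 44.99 and 44.2 CPM in rhSP-D, a log2 change of 0.14 ± 0.05 (SE). In each of the 2 genes the lowest rhSP-D library was above the highest vehicle library. SLC39A3 was no longer past the threshold without vehicle replicate 2, vehicle replicate 3, rhSP-D replicate 1 or rhSP-D replicate 2 (log2 changes 0.13, 0.14, 0.12 and 0.15), nor when libraries were thinned to 1 depth.

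SLC39A6, the partner of SLC39A10 and the gene for which the LIV-1 group is named, was known first as an oestrogen-regulated gene of breast cancer. It stood at 70.7, 72.997 and 72.04 CPM in vehicle and 68.5, 70.7 and 70.9 CPM in rhSP-D, with overlapping groups. Its log2 change was -0.04 ± 0.04 (SE), with a 95% interval from -7.77% to 2.34%.

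SLC39A8 and SLC39A14 encode the ZIP proteins that carry manganese and iron as well as zinc. SLC39A14, which interleukin-6 induces in liver, was measured at 129, 126 and 130 CPM in vehicle and 112, 113 and 115 CPM in rhSP-D. Every rhSP-D library was below every vehicle library, with a log2 change of -0.18 ± 0.03 (SE), or 11.8% lower (95% interval from -15.5% to -8.02%). SLC39A8 was the least abundant of the 10 and stood at 21.5, 21.7 and 21.8 CPM in vehicle and 21.9, 23.2 and 20.3 CPM in rhSP-D. Its groups overlapped, and its log2 change of 0.0048 ± 0.07 (SE, interval from -8.82% to 10.4%) had no stable sign: it was -0.039 without rhSP-D replicate 2, -0.00030 without rhSP-D replicate 1 and -0.036 with library totals alone.

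SLC39A7, SLC39A9 and SLC39A11 encode ZIP proteins of inner membranes. SLC39A7, which releases zinc from the endoplasmic reticulum and Golgi, was the most abundant ZIP transcript and stood at 177, 179 and 172 CPM in vehicle and 195, 190 and 192 CPM in rhSP-D. Its log2 change was 0.13 ± 0.03 (SE, 9.52% higher), and the groups did not overlap. It shared 244 exonic nt with RXRB of the opposite strand, itself at 46.9 ± 0.499 CPM in both groups (SD 0.628 in rhSP-D, n = 3). SLC39A9, a ZIP protein of the Golgi, was measured at 88.8, 94.7 and 92.4 CPM in vehicle and 90.1, 87.2 and 87.7 CPM in rhSP-D. SLC39A11, of a ZIP subgroup distant from the others, was measured at 49.5, 49.3 and 50.96 CPM in vehicle and 48.5, 49.5 and 47.7 CPM in rhSP-D. Both had overlapping groups and log2 changes of -0.06 ± 0.03 and -0.04 ± 0.04 (SE). With offsets for gene length and GC content SLC39A9 was at 0.02 and SLC39A6 at 0.00048, so neither had a stable direction, and with library totals alone SLC39A9 passed the threshold at -0.10.

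Compared per kb of merged exons, which allows levels to be set side by side between genes, 2 transcripts made up more of the ZIP sum than the other 8 together. In vehicle SLC39A7 stood at 61.8 ± 1.21 CPM per kb and SLC39A1 at 47.6 ± 0.357 CPM per kb (SD, n = 3), and they took 31.4% and 24.2% of the sum. SLC39A6, SLC39A14 and SLC39A9 followed at 19.5 ± 0.314, 18.5 ± 0.338 and 12.9 ± 0.418 CPM per kb. The next 4 were SLC39A3 at 9.05 ± 0.206, SLC39A11 at 8.94 ± 0.163, SLC39A10 at 7.53 ± 0.511 and SLC39A4 at 7.37 ± 0.31 CPM per kb, and SLC39A8 was last at 3.34 ± 0.0181 CPM per kb. In this order the libraries of SLC39A3 and SLC39A11 overlapped, as did those of SLC39A10 and SLC39A4, and the other neighbours did not.

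In rhSP-D the order of the first 4 genes was as in vehicle, and SLC39A10 stood at rank 5 in place of rank 8, at 12.8 ± 0.362 CPM per kb (SD, n = 3). Its libraries there overlapped with those of SLC39A9 at 12.4 ± 0.219 CPM per kb. Its share of the ZIP sum was 3.79%, 3.59% and 4.11% in the vehicle libraries and 6.13%, 6.17% and 5.87% in the rhSP-D libraries. The sum of the 10 was 196.6 ± 0.464 CPM per kb in vehicle and 211 ± 2 CPM per kb in rhSP-D, and without SLC39A10 it was 189 ± 0.728 and 199 ± 1.92 CPM per kb. Together SLC39A6 and SLC39A10, whose proteins pair, stood at 27.06 ± 0.527 CPM per kb in vehicle and 31.8 ± 0.261 CPM per kb in rhSP-D. The difference between the sums depends on scaling, since they were 199 and 208 CPM per kb with library totals alone. Ranks depend on the gene model: with the longest transcript as the length, SLC39A10 was at rank 9 in vehicle and rank 7 in rhSP-D.

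**Figure D3:**
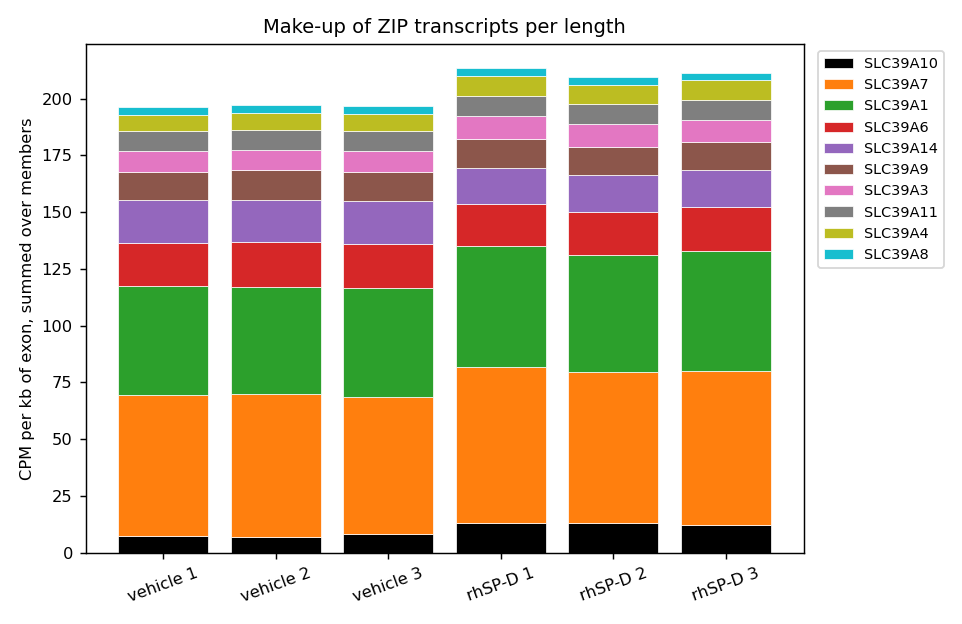
Stacked bars give CPM per kb of merged exons for each ZIP transcript in each of the 6 libraries (linear axis from 0). SLC39A10, in black at the base, takes 3.59 to 4.11% of the bar in vehicle and 5.87 to 6.17% in rhSP-D, while SLC39A7 and SLC39A1 fill most of every bar.

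The log2 change followed the base composition and length of transcripts over the whole table, and the ZIP genes differ in both. Among tested genes ordered by GC content, the median log2 change was -0.07 in the lowest quintile (27.4 to 41.1% GC), where 3.29% were called higher, and 0.06 in the highest quintile, where 16.7% were called higher. SLC39A7, SLC39A4, SLC39A1 and SLC39A3, at 54.8 to 58.03% GC, fall in the quintile with a median of 0.04. SLC39A10 has the lowest GC content of the 10, at 37.6%, and falls in the lowest quintile. By exonic length the medians ran from 0.09 in the shortest to -0.07 in the longest quintile, and SLC39A10, at 6917 nt, lies in the quintile with a median of -0.03. With offsets that remove both trends SLC39A10 was at 0.85, SLC39A4 at 0.22, SLC39A3 at 0.11, SLC39A1 at 0.09, SLC39A7 at 0.08 and SLC39A14 at -0.13. SLC39A3 was then below the threshold.

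**Figure D4:**
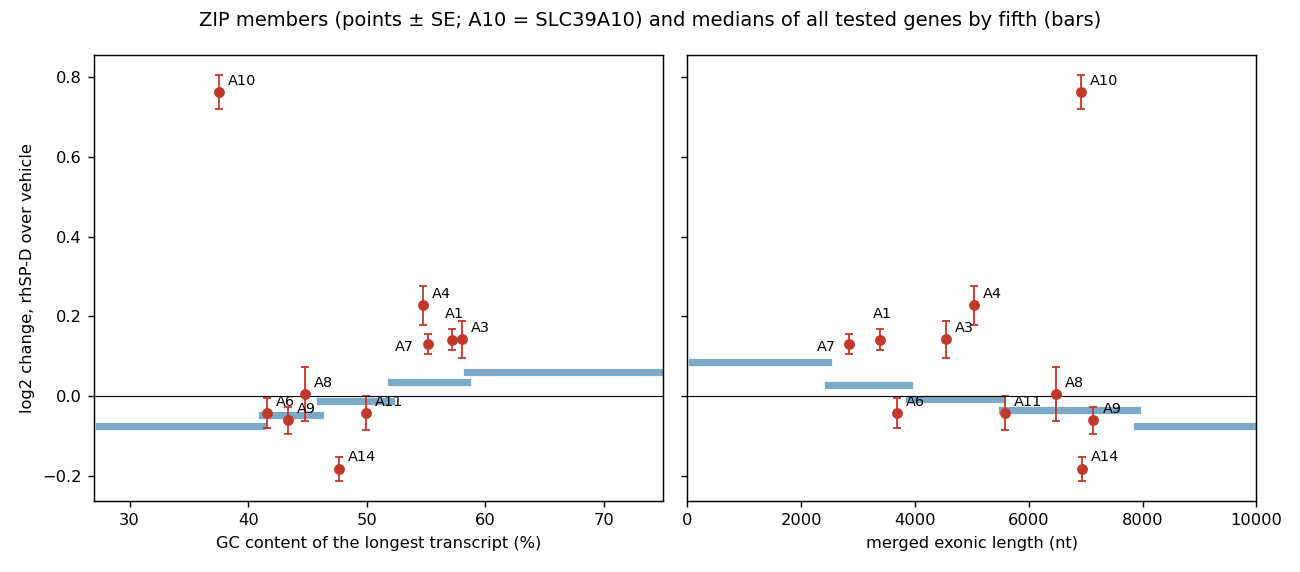
Log2 change of each ZIP gene (red points ± SE, labelled by the end of the symbol) against the GC content of its longest transcript (left) and its merged exonic length (right); blue bars give the median of all tested genes in each quintile, the longest of which runs past the axis on the right. SLC39A10, at 37.6% GC and a log2 change of 0.76, stands far above the bar of its quintile (-0.07), while SLC39A7, SLC39A1 and SLC39A3 lie nearer to theirs (0.04).

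The genes beside the ZIP loci were examined because position was not part of the choice. SLC39A10, with 9 transcripts in GENCODE 29, abuts DNAH7, an axonemal dynein heavy chain gene, which was measured at 1.298, 0.836 and 0.796 CPM in vehicle and 0.547, 0.872 and 0.552 CPM in rhSP-D. Its log2 change of -0.54 ± 0.36 (SE, edgeR adjusted p = 0.363) had overlapping groups. The nearest tested gene on the other side, SDPR, a caveolar protein gene, lies 3729 kb away and had a log2 change of -0.16 ± 0.10 (SE, edgeR adjusted p = 0.331). No exon of SLC39A10 overlaps another gene model. Of the 20 genes nearest to the 10 ZIP genes 3 passed the test, against 15.9% of all genes tested, each higher: VPS28 beside SLC39A4, ERH beside SLC39A9 and SGTA beside SLC39A3, at log2 changes of 0.19, 0.11 and 0.11 (edgeR adjusted p = 4.02e-05, 0.00882 and 0.0184). None was called lower, and 2 were lower at an unadjusted p under 0.05. ERH shares 373 exonic nt with SLC39A9 on the opposite strand, where the origin of a read is uncertain unless strand was used in counting.

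Transcripts whose profile over the 6 libraries was most like that of SLC39A10 were ordered by the root-mean-square difference of log2 CPM after centring on the vehicle mean. The nearest 5 of the genes that averaged 1 CPM or more were RN7SL3 (0.10 log2 units), AC011933.1 (0.14), ANKRD18A (0.14), AC074138.3 (0.15) and RHCG (0.16). RHCG encodes an ammonium transporter and stood at 16.7, 13.4 and 14.8 CPM in vehicle and 21.6, 22.6 and 24.9 CPM in rhSP-D. RN7SL3 belongs to the repeated family of signal recognition particle RNA, and its 22 to 100 counts can be shared with near-identical copies. None of the 5 is a zinc transporter or metallothionein, and all 5 are less abundant than SLC39A10. They were picked for likeness in these libraries, so no test is given.

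Of the 4 ZIP genes outside the list, SLC39A13 alone was abundant enough to test. Its protein acts in the Golgi and vesicles of connective tissue cells. It stood at 59.4, 57.55 and 52.06 CPM in vehicle and 60.1, 60.04 and 62.3 CPM in rhSP-D, without overlap. The log2 change of 0.12 ± 0.04 (SE) did not pass (edgeR adjusted p = 0.0649); it was 0.15 (adjusted p = 0.0311) without vehicle replicate 1 and 0.06 (adjusted p = 0.482) without vehicle replicate 3. SLC39A5 had 4 to 15 counts in a library and SLC39A2 at most 1. SLC39A12 had 0 counts in all 6 libraries, a count that allows up to 0.26 CPM in the shallowest and 0.117 CPM in the deepest (3 counts in a library, counting error only).

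SLC30A1, the counterpart of the ZIP importers at the cell surface, was lower in rhSP-D. Of 11 listed zinc exporter genes 7 could be tested, 3 fell and none rose with edgeR's quasi-likelihood test and Benjamini-Hochberg adjustment (over all genes tested 6.63% were called lower and 9.31% higher), and the median log2 change was -0.16, against -0.0063 over all genes tested. This list and the other gene lists were chosen with earlier results of these data known. Their counts, medians and p-values are therefore a description and not an independent test. SLC30A1 stood at 124, 121 and 120 CPM in vehicle and 94.2, 98.4 and 97.7 CPM in rhSP-D, a log2 change of -0.33 ± 0.03 (SE, edgeR adjusted p = 1.24e-08). SLC30A6, which loads zinc into the early secretory pathway, fell from 31.8 ± 1.19 to 28.5 ± 1.14 CPM (SD, n = 3, edgeR adjusted p = 0.0438). SLC30A9, a mitochondrial zinc transporter, fell from 54.2 ± 1.54 to 49.6 ± 0.577 CPM (SD, n = 3, edgeR adjusted p = 0.0362). Neither SLC30A6 nor SLC30A9 passed with the length and GC offsets (adjusted p = 0.343 and 0.679).

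Both calls also rested on particular libraries. SLC30A6 was lost without vehicle replicate 1, vehicle replicate 3, rhSP-D replicate 1 or rhSP-D replicate 2 (edgeR adjusted p = 0.0728, 0.245, 0.209 and 0.0793). SLC30A9 was lost without vehicle replicate 1, vehicle replicate 2 or any of rhSP-D replicates 1, 2 and 3 (edgeR adjusted p = 0.0861, 0.164, 0.115, 0.0522 and 0.0861). SLC30A6 was also lost with limma-voom (adjusted p = 0.0552), without the filter on low counts (edgeR adjusted p = 0.0627) and after thinning to 1 depth (edgeR adjusted p = 0.329). SLC30A9 was lost without the filter and after thinning (edgeR adjusted p = 0.0556 and 0.0686). DESeq2 called only SLC30A1 of the 7. Among exporters that did not pass, SLC30A5, the partner of SLC30A6, was at a log2 change of -0.0016 ± 0.04 (SE, edgeR adjusted p = 0.987). SLC30A7 of the Golgi stood at -0.16 ± 0.07 (SE, edgeR adjusted p = 0.0892). SLC30A3 and SLC30A4 averaged 2.71 and 4.50 CPM in vehicle and did not pass, and SLC30A2, SLC30A8, SLC30A10 and TMEM163 were too scarce to test.

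The 3 metallothioneins abundant enough to test were lower in rhSP-D. Of 12 listed genes, the 11 metallothioneins and MTF1, 4 could be tested and 3 fell, with a median log2 change of -0.54 over the 4 (over all genes tested, 6.63% were called lower and the median was -0.0063). As with the exporters, the list was chosen with earlier results of these data known, so these values are a description. MT2A, the most abundant, stood at 137, 144 and 144 CPM in vehicle and 111, 108 and 106 CPM in rhSP-D (log2 change -0.39 ± 0.03 SE, edgeR adjusted p = 4.20e-10). MT1X was at 16.5, 13.997 and 16.8 CPM in vehicle and 10.5, 8.89 and 9.69 CPM in rhSP-D, and MT1F at 3.12, 4.91 and 5.17 CPM in vehicle and 3.05, 1.69 and 2.11 CPM in rhSP-D. Their log2 changes were -0.69 ± 0.09 and -0.95 ± 0.22 (SE, edgeR adjusted p = 4.15e-06 and 0.00318), and DESeq2 gave MT1F no adjusted p. These are similar genes whose reads can be shared. MTF1, the zinc sensor, stood at 15.5, 15.2 and 16.2 CPM in vehicle and 15.2, 14.1 and 16.4 CPM in rhSP-D, with a log2 change of -0.04 ± 0.08 (SE, edgeR adjusted p = 0.825) and overlapping groups. MT1A had at most 4 counts in a library, and MT1B, MT1E, MT1G, MT1H, MT1M, MT3 and MT4 were at 0 in every library.

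**Figure D5:**
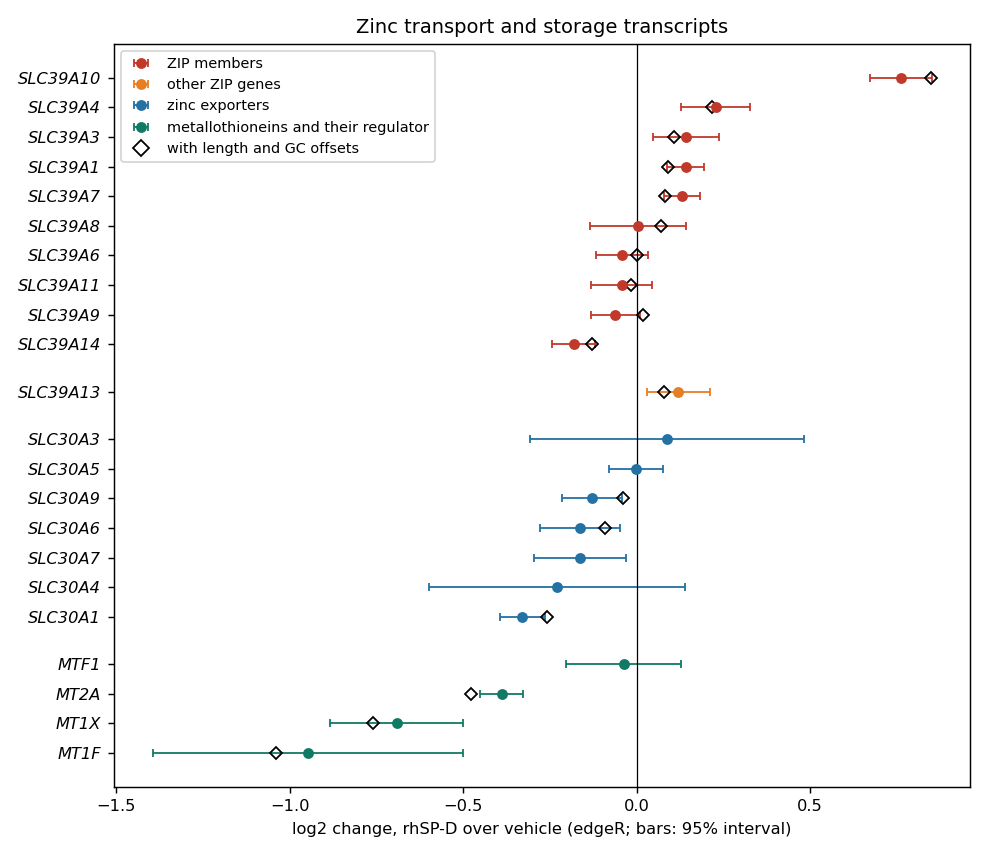
Log2 change of rhSP-D over vehicle with its 95% interval for the 10 ZIP genes, SLC39A13 and every tested zinc exporter and metallothionein list gene; open diamonds give the value with length and GC offsets for the ZIP genes and for the others that passed. SLC39A10 (0.76) stands at the upper end, and SLC30A1 (-0.33), MT2A (-0.39), MT1X (-0.69) and MT1F (-0.95) at the lower.

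Genes of iron and manganese handling were listed because SLC39A8 and SLC39A14 also carry these metals. Of 12 genes 10 could be tested, 2 rose and 1 fell, with a median log2 change of 0.02, while 9.31% of all genes tested were called higher and 6.63% lower. TF, the gene of the iron carrier transferrin, and SLC30A10 were too scarce to test. HMOX1, the haem oxygenase that frees iron from haem, rose from 187 ± 1.81 to 222 ± 4.78 CPM (SD, n = 3, log2 change 0.24 ± 0.02 SE, edgeR adjusted p = 3.12e-08). FTH1, the heavy chain of the iron store ferritin, rose by 6.46% (edgeR adjusted p = 1.84e-05), a log2 change of 0.09 that was 0.05 with the length and GC offsets and also with library totals alone; it shares 1267 exonic nt with BEST1 on the opposite strand. IREB2, an iron-sensing RNA-binding protein, fell by 8.20% (edgeR adjusted p = 0.0138), but not without vehicle replicate 3 (adjusted p = 0.133) or with the length and GC offsets (log2 change -0.01, adjusted p = 0.875). The transferrin receptor TFRC and the iron importer SLC11A2 were at log2 changes of -0.05 ± 0.03 and -0.02 ± 0.06 (SE, edgeR adjusted p = 0.371 and 0.84).

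The last lists held genes tied to SLC39A6 and SLC39A10 in earlier work and genes of zinc in the secretory pathway. The 8 tested genes of the first had a median log2 change of -0.01. None of them passed with edgeR or DESeq2, and 2 had an unadjusted p under 0.05 (STAT3 and CDH1). Among them was STAT3, which drives SLC39A6 transcription, at a log2 change of -0.07 ± 0.03 (SE, edgeR adjusted p = 0.0592). SNAI1, a repressor of epithelial genes, was at 0.25 ± 0.14 (SE, adjusted p = 0.252) and its target CDH1 at -0.06 ± 0.03 (SE, adjusted p = 0.131). PRNP, the prion protein gene related to the LIV-1 ZIP genes by descent, was at 0.02 ± 0.03 (SE), its edgeR adjusted p being 0.682 and its 95% interval -2.33% to 5.26%. Of 6 genes of the secretory list 2 could be tested, ALPI and ERP44, and neither passed with edgeR, DESeq2 or at an unadjusted p under 0.05; ALPL, ALPP and TMEM163 were too scarce, and ALPG was not matched by symbol.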

How the data were processed

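RNA of A549 cells was extracted with Trizol and sequenced paired-end from NEBNext Ultra libraries, per the labels' protocols. The authors deposited raw counts per gene for 3 vehicle and 3 rhSP-D samples, with no normalization. Cutadapt, STAR 2.7.0a, featureCounts 2.0.0 and GRCh38 (hg38) are named in the submitters' processing notes; for the annotation release, the strand setting and multimapping reads, the processing is not given in the sources used here. No column of another sample was present.

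From these counts, genes passing edgeR's filter (minimum count 10, minimum total 15) were scaled by TMM and fitted with edgeR 4.0.16 (R 4.3.3) in its robust quasi-likelihood test of rhSP-D against vehicle, with Benjamini-Hochberg adjustment over all 15848 genes and a threshold of 0.05. CPM use the TMM-scaled library sizes. Intervals of log2 changes are 95% intervals of that fit. GENCODE 29 on the same build gave positions, lengths and GC content, and RefSeq gave promoter windows. The procedure was tested on simulated counts with the same dispersion for every gene and no trend with gene length or GC content. That simulation therefore does not show how often calls are wrong in the real counts. The members and lists were chosen with earlier results of these data known. All 10 ZIP genes are named, and from each other list the genes that passed (up to 8) and those too scarce to test; list genes named although they did not pass were picked with their values known. The 5 profiles most like SLC39A10 were taken by the root-mean-square difference. Alternatives were other scalings, filters, tools (DESeq2 1.42.0, limma 3.58.1 with voom), offsets for gene length and GC content (natural splines with 5 degrees of freedom), a replicate block, thinning to 11396193 counts, a threshold of 0.01 and leaving out each library.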

Additional observations from a re-analysis of the deposited data

How the results depend on the processing

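SLC39A10 (log2 change 0.71 to 0.85), SLC39A1 (0.09 to 0.15), SLC39A4 (0.19 to 0.25) and SLC39A14 (-0.22 to -0.13) kept their direction in all 17 alternative settings run on them, a description of genes selected on this contrast. SLC39A3 (0.10 to 0.16), SLC39A7 (0.08 to 0.15) and SLC39A11 (-0.08 to -0.01) also kept their direction in all 17. SLC39A3 was below the threshold in 10 of 17, and SLC39A7 only with length and GC offsets and the replicate block together (0.08). Genes without a stable sign were SLC39A6, at 0.00048 with length and GC offsets and 0.0033 with the block added; SLC39A9, at 0.018 and 0.019 in the same settings; and SLC39A8, at -0.036 with library totals alone, -0.00030 without rhSP-D replicate 1 and -0.039 without rhSP-D replicate 2, against 0.049 without rhSP-D replicate 3. The causes were not tested.

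Of all genes, 2526 passed, 1678 when the deepest library (rhSP-D replicate 1) was left out, within a range of 1678 to 2182 with 1 library left out, 1503 with the offsets and the replicate block, and 1465 at an adjusted p under 0.01. With 1 library left out, 5 to 6 ZIP genes and 7 to 9 genes of the other lists (zinc, iron and manganese genes together) passed, and SLC39A10 ran from 0.71 to 0.83. Its share of the ZIP sum then ran from 3.69% to 3.95% in vehicle and from 6.001% to 6.15% in rhSP-D, and the sums from 196.4 to 196.9 and from 210.3 to 212.3 CPM per kb. The sums were 199 and 208 CPM per kb with library totals alone and 258 and 277 with the longest transcript as length, where the rhSP-D share was 5.89%. Scaling moved the median log2 change of all genes by -0.04 at most.

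Samples with the same replicate number did not deviate together (correlations -0.10, -0.08 and 0.03), and unlike numbers gave -0.11 to 0.18. So few values cannot settle whether the numbers pair the samples. With the replicate block 2319 genes passed, with 5 ZIP genes and 8 genes of the other lists, and SLC39A10 stayed at 0.76. SLC39A3 and SLC30A6 (edgeR adjusted p = 0.0617) did not pass with it. Scarce genes such as SLC39A5 did not pass the filter on low counts, so no difference was tested in them.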
